A study of Mus musculus with 15 samples.

Results

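The 10 genes described here are Cdkn2a, Cdkn2b, Rb1, Ccnd1, Ccnd2, Ccnd3, Cdk4, Cdk6, Ccne1 and Cdkn1b, which control the step from G1 into S phase. They were taken by symbol, and all 10 are among the 17271 genes of the deposited table. RNA was sequenced from 15 mammary tumour samples of BALB/c mice, and every sample, including those that serve as a comparison group, is labelled p53 null. There were 4 tumour models. 2151R was represented by 4 samples, 2208L by 8, 2225L by 2 and T11 by a single sample. Of the 2151R samples, 2 are titled NT and the other 2 carry codes that the labels do not explain. Of the 2208L samples, 4 are titled PBS, 3 are titled 3day nt and 1 is titled ROSEN, and in 2225L 1 sample is titled T-Vivo and 1 ROSEN. No age and no treatment beyond these titles is given. As background, such models are tumour lines kept by transplantation, so the samples of a model are repeats of 1 tumour, and no label says which came from separate mice. The p-values therefore measure the spread between these samples only.

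Each value is a gene's log2 expression level on a scale whose zero point is not stated, so samples can be compared for a gene, but genes cannot be ranked against each other. The table holds no counts, and sequencing depth is unknown. In such bulk samples a change in the number of cells of a type and a change in RNA per cell cannot be told apart. A list of 10 epithelial markers, scored as the mean of its centred values, ran from -3.60 to -2.56 in 2151R, was -7.82 in T11, 3.16 and 3.17 in 2225L and ran from 1.31 to 2.34 in 2208L. The epithelial score was thus lowest in T11. Markers of other cell types also differed between models. Of 8 macrophage markers 6 were called higher in 2151R than in 2208L, as were 5 of 5 endothelial and 7 of 11 mesenchymal markers, beside 26.1% of all genes. In 2225L, 7 of 8 macrophage and 7 of 11 mesenchymal markers were lower than in 2151R, beside 25.8% of all genes. Between 2225L and 2208L, 4 of 8 macrophage markers were lower, beside 17.3% of all genes. The part of these cell types in the differences between models was not tested. A list of 7 skeletal muscle genes stood at 6.09 in replicate 3 of 2151R and at 9.16 and 8.64 in replicates 6 and 8 of 2208L, and between -4.96 and 1.47 in all other samples. The comparisons of the 10 genes were also fitted without these 3 libraries. Fits against 3day nt samples alone, and results for other genes, are given with them only.

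In G1, the D-type cyclins encoded by Ccnd1, Ccnd2 and Ccnd3 bind the kinases Cdk4 and Cdk6 and phosphorylate the retinoblastoma protein, the product of Rb1, which otherwise holds E2F transcription factors in check. Cyclin E1, from Ccne1, then acts with Cdk2 to complete that phosphorylation. The inhibitors p16Ink4a, from Cdkn2a, and p15Ink4b, from Cdkn2b, block Cdk4 and Cdk6, whereas p27Kip1, from Cdkn1b, acts mainly on cyclin E and Cdk2. Cdkn2a also encodes p19Arf from its own first exon, and p19Arf protects p53 by restraining Mdm2, a branch whose end point is missing in p53-null tumours.

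Cdkn2a and Cdkn2b lie next to each other on the minus strand of chromosome 4 (GRCm38.p6, chr4:89274473-89294619 and chr4:89306289-89311032), and the other 8 genes are spread over chromosomes 5, 6, 7, 10, 14 and 17. RefSeq gives Cdkn2a 2 start sites that are 12.43 kb apart. The deposited table has 1 row for the gene, so transcripts from these sites cannot be told apart in the values. The 250 bases before a start site are shown for the 4 records that hold a match to E2F letters, both Cdkn2a sites, Ccne1 and Cdk6. The other 5 records, of Cdkn2b, Cdkn1b, Cdk4 and both sites of Ccnd3, hold none and are not shown. Sequences are from RefSeq promoter records of GRCm38.p6, read 5′ to 3′ on the strand of the gene. Capitals mark matches on either strand to the E2F core letters TCCCGC or TGGCGC, or to the longer E2F forms TTTCCCGC, TTTCGCGC, TTTGCCGC and TTTGGCGC, of which the first and the last contain a core.
Cdkn2a, upstream site (chr4:89294620-89294869, minus strand): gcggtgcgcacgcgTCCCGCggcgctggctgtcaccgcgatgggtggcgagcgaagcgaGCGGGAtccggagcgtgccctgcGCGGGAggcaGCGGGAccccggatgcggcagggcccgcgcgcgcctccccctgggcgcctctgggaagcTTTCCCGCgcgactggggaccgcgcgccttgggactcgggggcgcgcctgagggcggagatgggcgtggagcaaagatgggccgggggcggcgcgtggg
Cdkn2a, downstream site (chr4:89282193-89282442, minus strand): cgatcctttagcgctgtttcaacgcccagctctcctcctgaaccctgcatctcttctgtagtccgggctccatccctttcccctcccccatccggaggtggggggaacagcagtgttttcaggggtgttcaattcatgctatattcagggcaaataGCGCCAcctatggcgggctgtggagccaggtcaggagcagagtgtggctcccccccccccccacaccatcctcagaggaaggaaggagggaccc
Ccne1 (chr7:38107491-38107740, minus strand): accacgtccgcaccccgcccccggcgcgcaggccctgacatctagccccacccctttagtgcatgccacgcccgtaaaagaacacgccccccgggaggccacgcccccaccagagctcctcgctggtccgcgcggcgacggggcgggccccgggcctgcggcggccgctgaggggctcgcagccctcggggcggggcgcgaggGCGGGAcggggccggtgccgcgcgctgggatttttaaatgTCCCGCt
Cdk6 (chr5:3343643-3343892, plus strand): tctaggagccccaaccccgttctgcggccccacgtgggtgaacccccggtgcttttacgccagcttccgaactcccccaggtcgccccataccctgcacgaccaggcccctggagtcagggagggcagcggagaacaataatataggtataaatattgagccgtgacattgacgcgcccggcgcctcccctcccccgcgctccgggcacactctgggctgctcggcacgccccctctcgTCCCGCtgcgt
The upstream Cdkn2a site had 5 core matches, 1 of them inside the long form TTTCCCGC that starts 99 bases before the start site. The downstream Cdkn2a site and Cdk6 had 1 core match each, and Ccne1 had 2. Of 9 promoter records, from 7 of the genes, 4 held a core and 1 a long form, against 23.4% and 1.86% of 32851 promoters of the same length. The promoter records used here hold no entry for Rb1, Ccnd1 and Ccnd2. A match describes letters and is no evidence of binding.

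**Figure D1:**
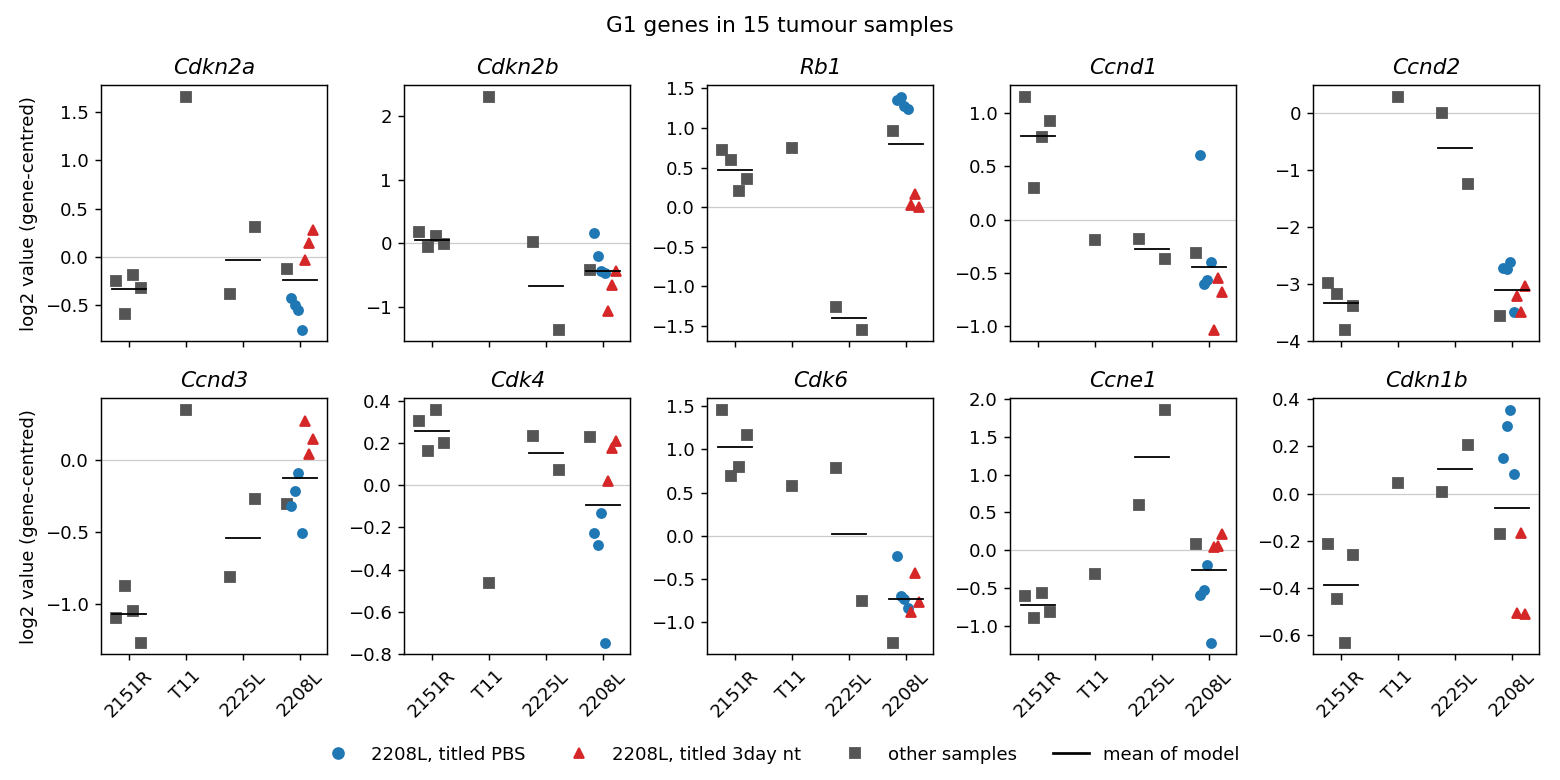
Log2 values of the 10 genes (vertical axes, relative to an unstated level of each gene) in the 15 samples, grouped by model on the horizontal axes. Points are samples, with circles for 2208L titled PBS and triangles for 2208L titled 3day nt, and bars are means of models with more than 1 sample. T11 lies above all other samples for Cdkn2a, Cdkn2b, Ccnd2 and Ccnd3, and both samples of 2225L lie below all others for Rb1.

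Among the INK4 inhibitors, Cdkn2a and Cdkn2b were high in T11 and overlapped between the other 3 models. The value of Cdkn2a was 1.66 in T11. It was -0.25, -0.59, -0.19 and -0.32 in replicates 1 to 4 of 2151R, -0.38 and 0.31 in 2225L, and ran from -0.75 to 0.28 (median -0.27) in 2208L. The 14 samples outside T11 thus spanned about 1 log2 unit, with T11 above all of them, and the models other than T11 overlapped. Cdkn2b stood at 2.31 in T11, while the highest of the other samples was 0.17. It was 0.17, -0.06, 0.11 and -0.01 in 2151R, 0.01 and -1.36 in 2225L, and -1.07 to 0.16 (median -0.44) in 2208L. T11 lay 1.90 above the mean of 2208L for Cdkn2a and 2.75 for Cdkn2b. T11 is 1 sample, so these are values with no test.

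A difference was called where limma gave an adjusted p (Benjamini-Hochberg, over all genes) under 0.05. Neither INK4 gene was called in a comparison of the replicated models. For Cdkn2a the difference of 2151R from 2208L was -0.09 (95% interval -0.55 to 0.36), that of 2225L from 2208L 0.21 (-0.38 to 0.79), and that of 2225L from 2151R 0.30 (-0.34 to 0.94). For Cdkn2b, 2151R was above 2208L by 0.50 (SE 0.25, limma adjusted p 0.112). This difference passed when only those groups entered the fit (limma adjusted p 0.0398, and 0.0445 by a two-sided exact permutation test adjusted over all genes). The adjusted p of this difference ran up to 0.419 over the other alternatives. Without replicate 1 of 2225L, Cdkn2b was called lower in 2225L, by a difference of -0.92 from 2208L and -1.42 from 2151R, since the remaining sample held the lowest value of the gene.

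Cdkn1b, which encodes p27Kip1, varied little, with an SD of 0.31 over the 15 samples, where the median gene had 0.69. Its values were -0.21, -0.44, -0.63 and -0.26 in 2151R, 0.05 in T11, 0.01 and 0.20 in 2225L, and -0.51 to 0.36 (median -0.04) in 2208L. The 3 comparisons between replicated models did not call it. The difference of 2151R from 2208L was -0.33 (95% interval -0.72 to 0.07).

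The D-type cyclins differed in which model was highest. Ccnd1 was highest in 2151R, at 1.16, 0.29, 0.78 and 0.93. It was -0.19 in T11, -0.18 and -0.37 in 2225L, and ran from -1.04 to 0.60 (median -0.56) in 2208L. All 4 samples of 2151R lay above 7 of the 8 samples of 2208L, and replicate 2 of 2208L, at 0.60, overlapped them. The mean of 2151R was 0.79 ± 0.36 (SD, n = 4), and that of 2208L was -0.44 ± 0.47 (SD, n = 8). Ccnd1 was higher in 2151R by 1.23 (SE 0.25, limma adjusted p 0.00132), a ratio of 2.35. The call held in all 26 alternatives, with differences from 1.03 to 1.55. The values of 2225L and 2208L overlapped (difference 0.17, 95% interval -0.54 to 0.88), and 2225L minus 2151R was -1.06 (SE 0.36), called at a limma adjusted p of 0.0264. Leaving out replicate 1 or 4 of 2151R, or either sample of 2225L, ended the last call, with adjusted p values of 0.0639, 0.0547, 0.0641 and 0.132, and with CP libraries only, quantile normalization or sample weights.

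Ccnd2 separated T11 and 2225L from 2151R and 2208L, and it had the widest range of model means of the 10 genes, 3.63. Its value was 0.29 in T11 and 0.00 and -1.24 in 2225L. In 2151R it was -2.99, -3.17, -3.80 and -3.38, and in 2208L it ran from -3.56 to -2.62 (median -3.12). No sample of 2151R or 2208L came within 1 log2 unit of T11 or 2225L. The difference of 2225L was 2.49 from 2208L (SE 0.34, limma adjusted p 0.000135) and 2.72 from 2151R (SE 0.38, limma adjusted p 6.09e-05), ratios of 5.61 and 6.58. Both calls held in all alternatives. 2151R and 2208L did not differ beyond their spread (difference -0.23, 95% interval -0.80 to 0.34), but quantile normalization turned this difference to 0.83 (limma adjusted p 0.0087), so no order is given for these models.

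Ccnd3 was lowest in 2151R and highest in T11. It was -1.10, -0.88, -1.05 and -1.27 in 2151R, 0.35 in T11, -0.81 and -0.27 in 2225L, and ran from -0.51 to 0.27 (median -0.15) in 2208L. Every sample of 2151R lay below every other sample. The difference of 2151R from 2208L was -0.95 (SE 0.17, limma adjusted p 0.000401), and it ran from -1.23 to -0.79 over the alternatives, so that a threshold of 1 log2 unit ends the call. The difference of 2225L from 2208L was -0.42 (95% interval -0.89 to 0.05). Between 2225L and 2151R the samples did not overlap either, but the difference of 0.53 did not pass (SE 0.24, limma adjusted p 0.08). It passed when each sample was centred on its median (0.61, limma adjusted p 0.027), with quantile normalization and without replicate 1 of 2225L.

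Of the partner kinases, Cdk6 was called between models, and Cdk4 was not in the 3 comparisons. Cdk6 was 1.46, 0.69, 0.80 and 1.17 in 2151R, 0.57 in T11, 0.79 and -0.75 in 2225L, and -1.24 to -0.24 (median -0.75) in 2208L. All 4 samples of 2151R lay above all 8 of 2208L, while 1 sample of 2225L sat with each of these models. Cdk6 was higher in 2151R than in 2208L by 1.75 (SE 0.27, limma adjusted p 0.000111), a ratio of 3.37, and this held in all 26 alternatives. The difference of 2225L from 2208L was 0.74 (SE 0.34, limma adjusted p 0.115). It was 1.52 for replicate 1 of 2225L alone (library prefix CP, limma adjusted p 0.00558) and -0.03 for replicate 2 alone (prefix ROSEN). With the prefix as a covariate it was 1.09 (limma adjusted p 0.0089). The difference of 2225L from 2151R was -1.01 (SE 0.38, limma adjusted p 0.0395). It was no longer called without replicate 2 of 2225L (-0.24), without replicate 1 or 4 of 2151R (-0.87 and -0.97), without the libraries of high muscle score (-1.09), and under 3 other alternatives.

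Cdk4 had an SD of 0.32 over the 15 samples. It ran from 0.16 to 0.36 in 2151R, was -0.46 in T11 and 0.23 and 0.07 in 2225L, and ran from -0.75 to 0.23 in 2208L. The samples of T11 and of 2208L titled PBS were the lowest, and the difference of 2151R from 2208L was 0.35 (95% interval -0.03 to 0.73).

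Ccne1 was highest in 2225L, at 0.60 and 1.86. It was -0.60, -0.89, -0.56 and -0.81 in 2151R, -0.32 in T11, and -1.22 to 0.21 (median -0.07) in 2208L. Both samples of 2225L lay above the other 13. The difference of 2225L was 1.49 from 2208L (SE 0.36, limma adjusted p 0.00691) and 1.94 from 2151R (SE 0.40, limma adjusted p 0.00138). The size rested on replicate 2 of 2225L, without which the difference from 2208L was 0.87 and not called (limma adjusted p 0.161), and the difference from 2151R was 1.32. With CP libraries only, the difference from 2208L was 0.92 (limma adjusted p 0.139), and with sample weights it was 1.57 (limma adjusted p 0.051). 2151R and 2208L overlapped (difference -0.45, 95% interval -1.06 to 0.16).

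Rb1 was low in both samples of 2225L, at -1.26 and -1.55. It was 0.72, 0.59, 0.21 and 0.35 in 2151R, 0.75 in T11, and 0.00 to 1.40 (median 1.10) in 2208L. The highest sample of 2225L lay more than 1 log2 unit below the lowest of all other samples. The mean of 2225L was -1.41 ± 0.20 (SD, n = 2), that of 2151R 0.47 ± 0.23 (SD, n = 4) and that of 2208L 0.80 ± 0.63 (SD, n = 8). The difference of 2225L was -2.21 from 2208L (SE 0.39, limma adjusted p 0.000899) and -1.88 from 2151R (SE 0.43, limma adjusted p 0.00296), which correspond to 4.62-fold and 3.67-fold lower values. Both calls held in all alternatives, and within the CP libraries, which hold 1 sample of 2225L, the differences were -2.04 and -1.73. The samples of 2208L fell apart by title, as described below.

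**Figure D2:**
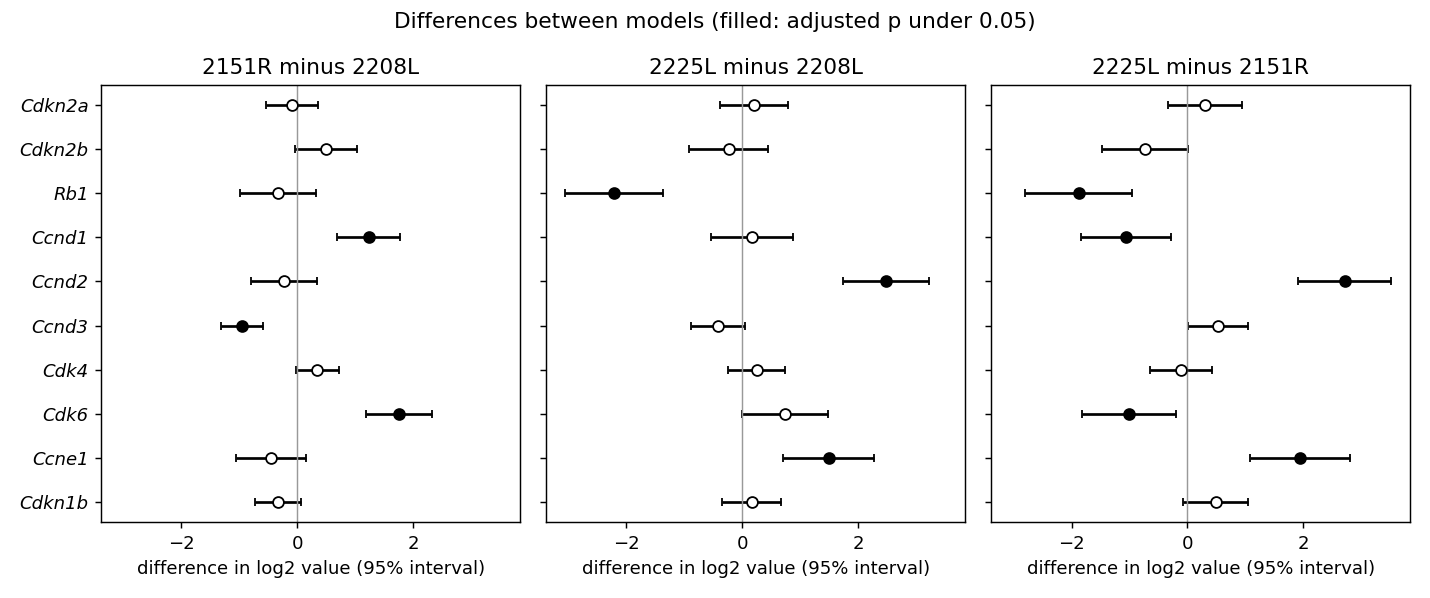
Differences in log2 value (horizontal axis) for the 10 genes (rows) in 3 comparisons of models, with bars for 95% intervals from limma and filled points for an adjusted p under 0.05 over all genes. Ccnd1 and Cdk6 lie to the right and Ccnd3 to the left for 2151R minus 2208L, and in both comparisons of 2225L Rb1 lies to the left and Ccnd2 and Ccne1 to the right.

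Counted over the set, 3 of the 10 genes were called between 2151R and 2208L (Ccnd1 and Cdk6 higher, Ccnd3 lower), where 48.8% of all genes were called. Between 2225L and 2208L, 3 of 10 were called (Ccnd2 and Ccne1 higher, Rb1 lower), where the share of all genes was 32.9%. Between 2225L and 2151R, 5 of 10 were called (Ccnd2 and Ccne1 higher, Rb1, Ccnd1 and Cdk6 lower), beside 48.6% of all genes. Higher calls were 2 of 10, beside 22.8% of all genes. The samples of the models did not overlap for 2, 3 and 6 of the 10 genes in these comparisons, beside 38.8%, 31.7% and 62.4% of all genes. These shares are near or below the background, so the set as a whole was not set apart by the number of its calls. The median size of the difference was 0.40 for the 10 genes and 0.68 for all genes between 2151R and 2208L, 0.33 and 0.63 between 2225L and 2208L, and 0.87 and 0.93 between 2225L and 2151R. The comparisons share samples and are not independent of each other. The CP libraries of 2151R, T11, 2225L and 2208L carry numbers from separate ranges, with 1 such library in 2225L. A difference between models cannot be told apart from one between ranges. For T11, 4 of the 10 genes (Cdkn2a, Cdkn2b, Ccnd2 and Ccnd3) lay above all 14 other samples, as did 17.4% of all genes, and 0 lay below all others, as did 9.47% of all genes.

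Within 2208L, Rb1 divided the samples by their titles. It was 1.36, 1.40, 1.27 and 1.24 in the PBS samples (replicates 2 to 5) and 0.03, 0.16 and 0.00 in the 3day nt samples (replicates 6 to 8). The gap between the subsets was over 1 log2 unit, while each spanned less than 0.2. In a fit of these 7 samples Rb1 was higher in PBS by 1.25 (SE 0.10, limma adjusted p 0.00162). Of the 10 genes 4 were called, where 34% of all genes were called. Cdkn1b was also higher in PBS, by 0.61 (SE 0.13, limma adjusted p 0.0163), and Cdkn2a and Ccnd3 were lower.

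Cdkn2a was -0.42, -0.49, -0.54 and -0.75 in PBS samples and -0.03, 0.15 and 0.28 in 3day nt samples, with no overlap, a difference of -0.68 (SE 0.13, limma adjusted p 0.0107). Ccnd3 ran from -0.51 to -0.09 in PBS and from 0.04 to 0.27 in 3day nt samples, a difference of -0.44 (SE 0.14, limma adjusted p 0.0461). Ccne1 and Cdk4 did not overlap between the subsets either, with differences of -0.74 and -0.48, and did not pass (limma adjusted p 0.0525 and 0.067). Both passed when samples were centred on their medians, with quantile normalization and with sample weights. Over all genes, 44.8% did not overlap between the subsets, and 6 of the 10 did not. The subsets come from separate ranges of library numbers. Their titles also begin with separate codes that the labels do not explain, DH for PBS and KM for 3day nt. The effects of title, code and library range cannot be told apart.

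**Figure D3:**
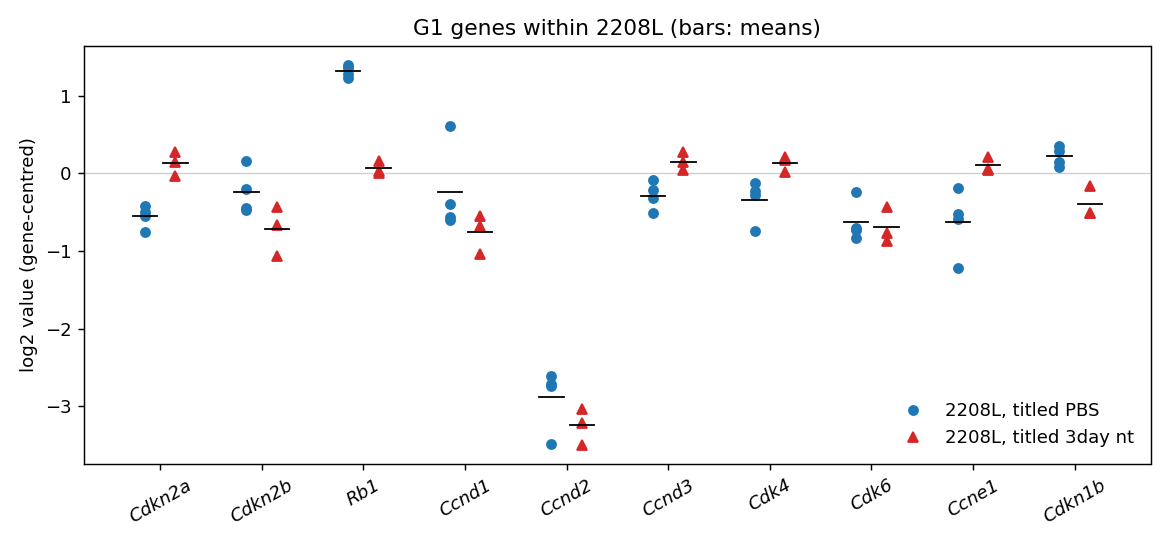
Log2 values (vertical axis) of the 10 genes in the 7 samples of 2208L titled PBS (circles) or 3day nt (triangles), with short bars for subset means. Rb1 lies at 1.24 to 1.40 in the PBS samples and at 0.00 to 0.16 in the 3day nt samples, whereas Cdkn2a and Ccnd3 are lower in the PBS samples.

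The skeletal muscle score ran from -4.32 to 1.47 in PBS samples and was 9.16 and 8.64 in replicates 6 and 8, titled 3day nt. In replicate 7, also titled 3day nt, the score was 0.57, within the range of the PBS samples. Of its 7 genes 2 were called, both lower in PBS, where 16.5% of all genes were called lower. The T cell score ran from -2.11 to 0.47 in PBS and from 0.23 to 0.89 in 3day nt samples, with 2 of 7 genes called lower in PBS, Cd3d and Trac. The adipocyte score ran from -4.24 to 1.68 in PBS and from 1.33 to 1.68 in 3day nt samples. Of its 5 genes Cfd did not overlap between the subsets (difference -5.99, limma adjusted p 0.0512). Leaving out replicates 6 and 8 leaves 1 sample titled 3day nt, too few to tell whether the calls hold without these libraries. The differences were then 1.16 for Rb1, -0.70 for Cdkn2a, 0.39 for Cdkn1b and -0.32 for Ccnd3. Without replicate 8 alone Cdkn2a (-0.61, limma adjusted p 0.0534) and Cdkn1b (0.56, limma adjusted p 0.0745) lost their calls, and without replicate 6 alone Cdkn1b did (0.56, limma adjusted p 0.0639). Ccnd3 lost its call without replicate 2, 3, 6, 7 or 8. The part of muscle, T cell or adipocyte RNA in these differences was not tested.

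The split changed what the comparison with 2151R showed for Rb1, in fits chosen after the data were seen. Against all of 2208L the difference of 2151R was -0.33 (SE 0.30, limma adjusted p 0.388). Against PBS samples alone it was -0.85 (limma adjusted p 0.00168), and against 3day nt samples alone it was 0.41 (limma adjusted p 0.0739). Against PBS samples alone Cdk4 was also called higher in 2151R (0.60, limma adjusted p 0.013) and Cdkn1b lower (-0.61, limma adjusted p 0.00763), and against 3day nt samples alone Ccne1 was called lower (-0.82, limma adjusted p 0.0387). The low Rb1 of 2225L was called against both subsets, with differences of -2.72 from PBS and -1.47 from 3day nt samples.

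Chromosomal neighbours of the members, the 5 genes of the table on each side in RefSeq order, showed whether a member moved alone. In T11 the high values at Cdkn2a and Cdkn2b were shared by the 3 nearest genes on 1 side. Of all genes, 17.4% lay above all 14 other samples in T11. Mtap, which encodes an enzyme of methionine salvage, was 1.12 in T11, above the highest other sample at 0.36. The predicted genes Gm12602 and Gm49890 were 6.71 and 1.93, with the highest other samples at 0.00 and 0.25. At Gm12602, 13 of the other 14 samples had the identical value 0.00, which is not read as a measured level, so no fold is given. Farther out on both sides, Mrpl48-ps, Gm12669, Gm12666, Tusc1 and Caap1 lay within the range of the other samples in T11, and Klhl9 (0.27) lay just above its highest other sample (0.08). High values in T11 were not particular to this place. Near Rb1, which lay within the range of the others in T11, Fndc3a, Cysltr2, Rcbtb2, Lpar6 and Itm2b lay above all other samples. Trerf1, Med20, Kpna2-ps and Usp49 near Ccnd3 did as well. Near Ccnd1, Fadd, Ano1, Fgf15 and LTO1 lay below all others. These genes were named after their values in T11 were seen. How reads were assigned to overlapping genes is not given in the sources used here.

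At Rb1 the neighbours differed between the comparisons. Between 2225L and 2208L, 1 of 10 neighbours was called, beside 32.9% of all genes. It was Fndc3a (difference -1.67, SE 0.43, limma adjusted p 0.0101), and the median difference of the neighbours was -0.08, beside -0.04 for all genes. The closer Rcbtb2 and Lpar6 differed by -0.13 and -0.04. Lpar6 encodes a receptor for lysophosphatidic acid, and its gene lies inside the span of Rb1. Between 2225L and 2151R, 4 of 10 were called lower, Gfra2 (-3.92), Fndc3a (-2.10), Rcbtb2 (-1.08) and Lpar6 (-0.67), and 0 higher. Of all genes, 25.8% were called lower and 22.8% higher. The median of the neighbours was -0.87, beside -0.10 for all genes. Between the subsets of 2208L, Fndc3a was higher in PBS by 1.17 (SE 0.14, limma adjusted p 0.00408), in the direction of Rb1, while 4 neighbours were lower. Of all genes, 17.4% were called higher in PBS and 16.5% lower.

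**Figure D4:**
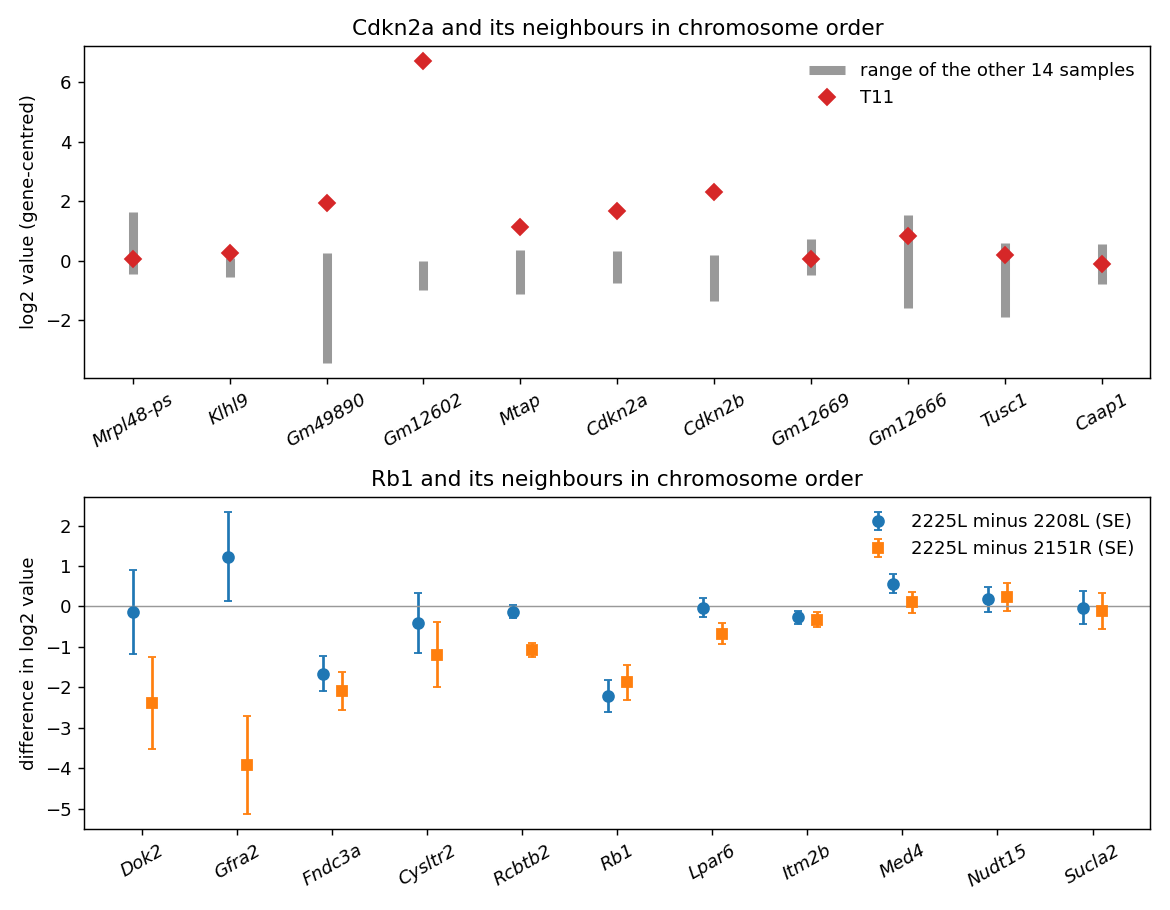
Upper panel, log2 values in T11 (diamonds) and the range of the other 14 samples (bars) for Cdkn2a and its neighbours in chromosome order. Lower panel, differences in log2 value of 2225L from 2208L and from 2151R with SE for Rb1 and its neighbours. In T11 the genes from Gm49890 to Cdkn2b lie above the range of the others, and at Rb1 the neighbouring Rcbtb2, Lpar6 and Itm2b lie at -0.13, -0.04 and -0.27 for 2225L minus 2208L.

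Near Ccne1, Pop4, a subunit of ribonuclease P, was higher in 2225L than in 2208L by 0.99 (SE 0.21, limma adjusted p 0.00296) and Dpy19l3 by 0.85, and the median of the 10 neighbours was 0.03. Against 2151R, 4 of 10 were called higher, Pop4 (1.52), Zfp939 (1.31), 1600014C10Rik (0.81) and Uri1 (0.78), 2 were called lower, and the median was 0.53. At Ccnd2, 1 of 10 neighbours was called higher and 4 lower between 2225L and 2208L, with Rad51ap1 higher by 1.05. Cdk6 had 6 neighbours in the table, of which Fam133b (0.58) and Gatad1 (0.68) were called higher in 2151R than in 2208L. Of the 7 neighbours of Ccnd1, Tpcn2 (0.57) and Mrgprf (3.67) were called higher in the same comparison and 1 lower. Of all genes, 15.6% were called higher and 17.3% lower between 2225L and 2208L. The shares were 22.8% and 25.8% between 2225L and 2151R, and 26.1% and 22.7% between 2151R and 2208L.

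Other genes of the pathway were described from fixed lists. Of 15 pocket proteins and E2F factors, which act directly with or downstream of the retinoblastoma protein, 8 had called higher values and 2 lower ones in 2151R relative to 2208L, where 26.1% of all genes were higher and 22.7% lower. The median difference of the list was 0.44, beside 0.10 for all genes. E2f8, a repressor of E2F targets, was higher by 2.50 (SE 0.18), and Rbl1, which encodes the Rb1 relative p107, by 1.63 (SE 0.19), while E2f6 was lower by a difference of -1.10. Between 2225L and 2208L, 3 were higher and 3 lower, where 15.6% of all genes were higher and 17.3% lower, among them E2f2 (1.24) and E2f7 (0.97) higher and E2f6 (-1.47) and Lin9 (-0.73) lower.

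Of 20 E2F target genes, most of them for DNA replication, 10 were called higher in 2151R and 1 in 2208L, beside 26.1% and 22.7% of all genes, with a median difference of 0.53. Ccne2, the second cyclin E gene, was higher by 1.20 (SE 0.20) and Orc1, a subunit of the origin recognition complex, by 1.03 (SE 0.18), and Rrm2 was lower by a difference of -0.60. Between 2225L and 2208L, 3 of the 20 were higher and 0 lower, where 15.6% of all genes were higher and 17.3% lower, so the count of higher genes was at the background. The median difference was 0.35, beside -0.04 for all genes. Mcm3 (0.85) and Mcm2 (0.84), subunits of the replicative helicase, were among them. A list of 10 mitosis genes moved with these values. Its score ran from 0.37 to 0.81 in 2151R, was 0.31 and 0.36 in 2225L and -0.24 in T11, and ran from -0.996 to -0.081 in 2208L. Of this list 9 of 10 genes were called higher in 2151R than in 2208L, and 4 of 10 in 2225L. Its part in the values of the G1 genes was not tested. Ccne2 and E2f1 stand in 2 of the lists each.

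The counts for the remaining lists are of few genes and stand beside the same shares, 26.1% of all genes higher and 22.7% lower in 2151R against 2208L, and 15.6% higher and 17.3% lower in 2225L against 2208L. Of the 4 other CDK inhibitor genes, Cdkn1c differed most. It encodes p57Kip2 and was 5.12 and 5.61 in 2225L, -1.23 to 0.00 in 2151R, -2.32 in T11 and -0.64 to 2.54 in 2208L. Both samples of 2225L lay more than 2 log2 units above all others, and the difference from 2208L was 4.23 (SE 0.59, limma adjusted p 0.000155). Cdkn2c, which encodes p18Ink4c, was higher in 2151R than in 2208L by 2.08 (SE 0.32) and in 2225L by 1.22 (SE 0.41). Of 9 measured genes for other G1 and S cyclins, their kinases and activators, 3 were called higher in 2151R and 1 in 2208L, with Ccna2 at 1.13 and Cdc25a at -0.84, and 2 were higher in 2225L, Mnat1 (0.91) and Ccna2 (0.61).

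The next list held genes for ubiquitin ligases and their cofactors, some of them for the turnover of p27Kip1. It gave 2 higher and 2 lower of 8 measured in 2151R against 2208L. Skp2, the subunit that marks p27Kip1 for degradation, was higher by 0.88 (SE 0.18), Ddb1 was higher by 0.47, and Skp1a (-1.22) and Fbxw7 (-0.99) were lower. Between 2225L and 2208L, Cul4a was higher (0.51) and Fbxw7 lower (-1.24). Of 16 genes that encode known regulators of the Cdkn2a locus, 5 were called higher in 2151R and 2 in 2208L, beside 26.1% and 22.7% of all genes, and the median difference was 0.016, beside 0.10. Tbx3, a repressor of Cdkn2a, differed most, by 4.67 (SE 0.37), and was 2.31 in T11, 1.74 to 2.39 in 2151R, -2.68 and -1.71 in 2225L and -3.97 to -1.54 in 2208L. Cdkn2a itself was not called between these models, and T11, which is 1 sample, held high values of both genes. A link between Tbx3 and Cdkn2a was not tested. Dmtf1 was higher (0.95), as were the Polycomb genes Bmi1 (0.92) and Cbx7 (0.83), and Kdm2b (0.74). The Polycomb gene Cbx8 (-1.47) and Tbx2 (-1.04) were lower, and Ezh2, Eed, Suz12, Pcgf2 and Rnf2 were not called. In 2225L 2 Polycomb genes, Suz12 (-0.98) and Bmi1 (-0.51), were lower than in 2208L. On the Arf and p53 axis, 2 of 5 were higher in 2151R than in 2208L, Myc (0.66) and Mdm2 (0.48). In 2225L, Npm1 (1.90, SE 0.23) and Myc (0.75) were higher than in 2208L and Mdm2 was lower (-0.69).

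The genes whose values ran most like those of a member over the 15 samples were found by Pearson correlation, as a description of samples that share model and library range. For Cdkn2a they were Micu2 (0.91), Prkaca (0.90) and Nr2f2 (0.89). For Rb1 they were Slc7a6 (0.96), Fem1c (0.95) and Gm6733 (0.94). For Ccnd1 they were Nup98 (0.94), Nub1 and Pus7 (each 0.91), for Ccnd2 Arc (0.95), Alcam and Rmdn2 (each 0.94), and for Cdk6 Zgrf1 (0.98), Fip1l1 and Rbm25 (each 0.97).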

How the data were processed

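Poly(A) RNA-seq of 15 mammary tumours was summarised by the authors as 1 table of log2 values. The log2 scale and a median centring are read from the name of the deposited table, and the offset and the normalization between samples are not given in the sources used here. The submitters' processing notes name STAR, Salmon and mm10, with no roles. Titles gave the models, and the series text writes 2151R and 2225L with a digit fewer. Replicate numbers follow accession order and pair nothing.

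For the model comparisons limma (version 3.58.1, under R version 4.3.3) fitted lmFit, then eBayes with no trend, on all 17271 genes and 15 samples, with a mean per model and a shared spread, and PBS with 3day nt samples of 2208L in a fit of 7. Calls are at a Benjamini-Hochberg adjusted p under 0.05 over all genes. T11 entered the fit untested. The fit was tested on simulated data. Ratios are 2 to the power of the log2 difference, and how an offset affects low genes is unknown. The members and lists were chosen with earlier results of these data known. Named genes are the members, a part of the neighbours called in the direction of the member, and the 3 genes most like each of 5 members. From each list up to 2 called genes per direction are named for both comparisons with 2208L, and further regulators of the Cdkn2a locus. RefSeq GRCm38.p6 placed 16181 genes (93.7%) by symbol. Alternatives changed scaling, variance model, weights, filter, threshold and samples.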

Additional observations from a re-analysis of the deposited data

Results flagged for a closer look

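In 30 groups of 4 or 8 samples checked for a sample far from the rest, 3 had one, where chance gives about 1 in 20, or 1.5. Replicate 2 of 2208L had Ccnd1 at 0.60, while the other 7 samples ran from -1.04 to -0.31. The same sample stood apart among the 4 titled PBS, where the others ran from -0.61 to -0.40. Replicate 5 of 2208L had Ccnd2 at -3.49, and the other PBS samples ran from -2.73 to -2.62.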

How the results depend on the processing

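With each sample centred on its median, T11 stood 1.75 above 2208L for Cdkn2a and 2.60 for Cdkn2b. Of the 15 called differences, none reversed, and 7 kept their call in every alternative run: Ccnd1 and Cdk6 between 2151R and 2208L, Rb1 and Ccnd2 in both comparisons of 2225L, and Ccne1 between 2225L and 2151R. Comparisons with 2208L restricted to 1 subset, and the centred values of T11, were chosen after the data were seen. The number of called members moved with sample weights, to 8 for 2151R against 2208L, 3 for 2225L against 2151R and 7 for PBS against 3day nt. Of the 17271 genes, 11369, 5252 and 11692 were then called, where the main fits called 8434, 8398 and 5864. With PBS samples only, 6 members were called for 2151R against 2208L, beside 8121 of all genes. The number for 2225L against 2151R also moved with CP libraries only, which leave 1 sample of 2225L. For PBS against 3day nt it was 1 when at least 1 log2 unit was required, beside 2208 of all genes. It was 0 without samples of high muscle score. That fit leaves 1 sample titled 3day nt and called few of all genes, so the 0 is not particular to the members. Leaving out single samples gave 1 to 7 called members for PBS against 3day nt, beside 2379 to 6800 of all genes. The number also moved for 2225L against 2151R, where some of these fits leave 1 sample of 2225L.

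Signs changed for differences that had not been called. For 2151R against 2208L, Ccnd2 was 0.83 with quantile normalization, and then called. Cdkn2a was 0.072 with sample weights, 0.0068 when samples with other titles than NT, nt and PBS were left out and 0.22 with PBS samples only. Against 3day nt samples only, Rb1 was 0.41 and Cdkn1b 0.0061. For 2225L against 2208L, Cdkn2b was 0.056 with quantile normalization, 0.46 with CP libraries only and 0.044 with 3day nt samples only. Cdkn2a was -0.12 and -0.17 in the latter 2 settings. Cdkn1b was -0.040 with sample weights and -0.11 with PBS samples only, where Ccnd1 was -0.033. For 2225L against 2151R, Cdkn2a was -0.047 with CP libraries only. For PBS against 3day nt, Cdk6 was -0.19 without samples of high muscle score. When single samples were left out, the differences from 2208L ran for 2225L from -0.14 to 0.55 at Cdkn2a, -0.92 to 0.45 at Cdkn2b and -0.028 to 1.52 at Cdk6. Those of 2225L from 2151R ran from -0.047 to 0.65 at Cdkn2a, and those of PBS from 3day nt from -0.064 to 0.20 at Cdk6. The cause was not tested. No paired analysis was possible because nothing in the sample titles links a sample of one group to a sample of another. Depth is unknown, so precision rests on the spread between samples.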

Other observations

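The sample of 2208L titled ROSEN (replicate 1) belongs to neither subset of 2208L. Its Rb1 value was 0.97, between those of the 3day nt samples (0.00 to 0.16) and the PBS samples (1.24 to 1.40). Its Cdkn2a value of -0.12 also lay between the subsets, whereas its Cdkn1b value of -0.17 fell within the range of the 3day nt samples (-0.51 to -0.17) and below that of the PBS samples (0.08 to 0.36). Its Cdk6 value of -1.24 and its Ccnd2 value of -3.56 were the lowest of the 8 samples of 2208L.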
